A study of Canis lupus familiaris with 34 samples.

Results

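Calcium handling in heart muscle was followed through 10 genes across the mitral valves of 34 dogs: RYR2, CASQ2, TRDN, JPH2, HRC, ATP2A2, PLN, SLN, CACNA1C and SLC8A1. They were taken by gene symbol, and the canine RefSeq entry was used wherever the table also listed a human alignment of the same gene. The 10 genes are 10 of the 23768 features listed, and all 10 are among the 19568 that reached 100 counts when summed over the dogs and were tested. RNA was extracted from excised valves of privately owned Cavalier King Charles Spaniels (CKCS), and poly-A libraries were sequenced in bulk. The comparison is between dogs without congestive heart failure (CHF), named 10y-noCHF (n = 19, 10 females and 9 males), and dogs in which myxomatous mitral valve disease (MMVD) had led to CHF, named 10y-MMVD-CHF (n = 15, 6 females and 9 males). The dogs of both groups were about 10 years old. The 10y-noCHF group is not a healthy group, since all of its dogs but 1 had MMVD at a stage before CHF. The stage of each dog is not paired with its counts here.

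In a heart muscle cell, each beat starts when calcium enters through the L-type channel of the surface membrane and opens the ryanodine receptor of the sarcoplasmic reticulum, which then releases stored calcium onto the contractile filaments. Relaxation follows when a calcium pump returns the calcium to the store and a sodium-calcium exchanger carries the rest out of the cell. A mitral leaflet is built mainly of interstitial cells and endothelium, and strands of atrial heart muscle reach its base.

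Total counts per dog ranged from 46185256 to 82361245. Levels are given as CPM, the counts brought to a common library size. The amount of heart muscle RNA was followed with 18 cardiomyocyte markers, none of them one of the 10 genes, as their mean log2 CPM per dog. This marker mean ran from -0.74 in CAV749 (10y-noCHF) to 9.98 in CAV1047 (10y-MMVD-CHF). It was 5.67 ± 2.82 (SD, n = 15) in the 10y-MMVD-CHF group and 5.26 ± 3.28 (SD, n = 19) in the 10y-noCHF group, and the summed markers ran from 54.2 to 30737 CPM and from 47.7 to 14379 CPM (two-sided permutation of CHF labels within each sex, p = 0.659, adjusted over 7 marker lists p = 0.846). The valve interstitial markers varied far less, from 10.3 to 11.6 in mean log2 CPM over all dogs. Smooth muscle (adjusted p = 0.480), endothelium, valve interstitial and the atrial and ventricular lists (adjusted p = 0.846 each, two-sided permutation tests) did not pass either. Of the 7 lists, only that of fast skeletal muscle, with 5 of 7 genes tested, passed, at -2.21 ± 0.42 (SD, n = 15) against -1.51 ± 0.64 (SD, n = 19; two-sided permutation test, p = 0.00081, adjusted p = 0.00567). Its summed level was low in every dog, 1.02 to 3.11 CPM with CHF and 1.2 to 5.65 CPM without. The list holds MYH1, which the study had already reported as down-regulated with CHF in these same dogs. Its pass is therefore not an independent result.

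The first group of genes forms the calcium store and its release site. RYR2 encodes the ryanodine receptor, the release channel itself, and lies on chr4:2743724-3470892 of canFam4 (minus strand). Its level was 34.1 to 617 CPM (median 102) in the 10y-noCHF group, and 28.5 to 1102 CPM (median 117) in the 10y-MMVD-CHF group. All 19 of the 10y-noCHF dogs lay within the range of the 10y-MMVD-CHF dogs.

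CASQ2 encodes calsequestrin, which binds calcium inside the store, on chr17:53761968-53827341 (minus strand). It had the widest range of the 9 genes with counts in every dog. The level was 0.0774 to 442 CPM (median 52.3) without CHF and 0.606 to 804 CPM (median 76.1) with CHF, and the highest dog exceeded the lowest, which had 6 counts, 10386-fold.

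TRDN encodes triadin, which ties calsequestrin to the release channel, on chr1:62977047-63337414 (minus strand). It ranged from 0.0516 to 209 CPM (median 20.7) in the 10y-noCHF group and from 0.363 to 372 CPM (median 40.4) in the 10y-MMVD-CHF group. The groups overlapped, with 18 of 19 dogs without CHF inside the range of the dogs with CHF.

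JPH2 encodes junctophilin, which holds the surface membrane next to the store, on chr24:32288596-32353381 (minus strand). Its values were low, 0.54 to 35.6 CPM (median 7.44) without CHF and 1.13 to 63.0 CPM (median 8.61) with CHF. HRC encodes the histidine-rich calcium binding protein of the store, on chr1:107979616-107983488 (plus strand), with 3.14 to 239 CPM (median 25.3) without CHF and 3.79 to 426 CPM (median 38.8) with CHF. For both genes the highest dog was CAV1047, and the other 14 dogs with CHF were below the highest dog without CHF.

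The second group refills the store. ATP2A2 encodes the calcium pump SERCA, on chr26:8381367-8442436 (plus strand). It was at 93.3 to 1944 CPM (median 288) in the 10y-noCHF group and 69.8 to 3519 CPM (median 367) in the 10y-MMVD-CHF group. No dog was near 0, and even CAV614, the lowest, had 4681 counts.

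PLN encodes phospholamban, a small membrane protein that holds the pump back until it is phosphorylated, on chr1:59137736-59149128 (plus strand). It ranged from 7.63 to 871 CPM (median 119.9) without CHF and from 8.63 to 1833 CPM (median 191) with CHF. The gene lies within CEP85L on the opposite strand, and the counting used no strand, so the PLN count was 36.5% of the CEP85L count in CAV749 and 97.0% of it in CAV1047, and reads of both genes cannot be told apart there.

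SLN encodes sarcolipin, the small pump regulator best known from atrial muscle. The feature counted is the short stretch chr5:24746168-24746782 (plus strand), which limits its depth to 0 to 2114 counts per dog. SLN was at 0 to 47.6 CPM (median 2.54) in the 10y-noCHF group and at 0.0298 to 18 CPM (median 1.95) in the 10y-MMVD-CHF group. In 6 dogs, 4 of them without CHF, it had at most 3 counts, so its level in them is not known more closely than that.

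The third group moves calcium across the surface membrane. CACNA1C encodes the pore of the L-type calcium channel, on chr27:1282245-1942199 (minus strand), and had the narrowest range of the 10 genes, 24 to 105 CPM (median 37.9) without CHF and 29.1 to 179 CPM (median 39.4) with CHF. SLC8A1 encodes the sodium-calcium exchanger NCX1, on chr17:32171263-32471231 (minus strand), with 19.5 to 196 CPM (median 43.4) without CHF and 15.1 to 354 CPM (median 58.9) with CHF. Reads of CACNA1C-AS1 on the opposite strand fall in the CACNA1C feature and cannot be told apart from it. The highest dog exceeded the lowest 7.48-fold for CACNA1C and 23.4-fold for SLC8A1, against 38.7-fold for RYR2, 50.4-fold for ATP2A2, 117-fold for JPH2, 136-fold for HRC, 240.0-fold for PLN and 7219-fold for TRDN.

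**Figure D1:**
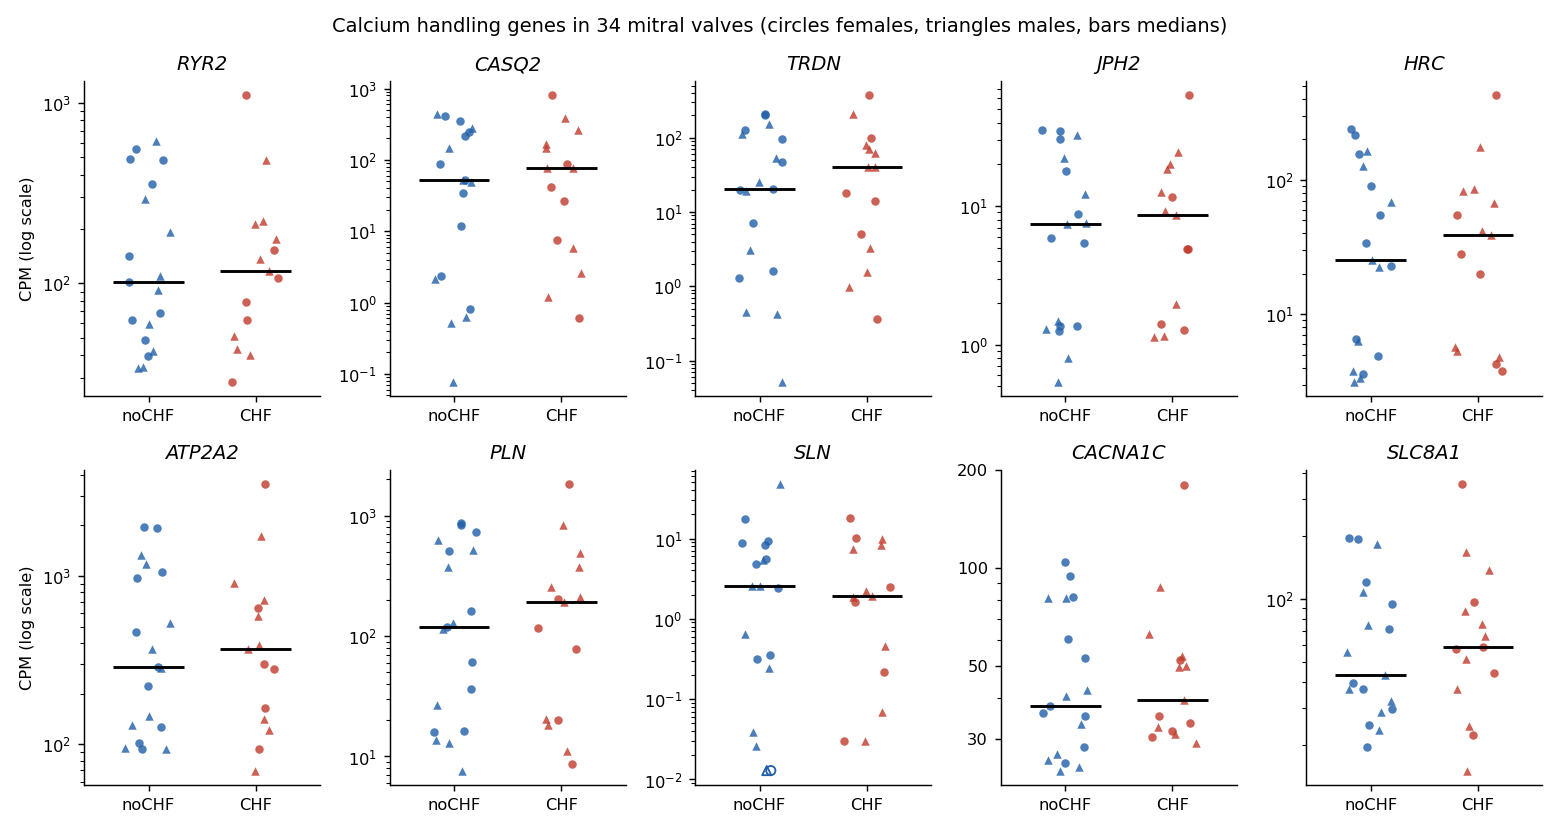
Level of each of the 10 genes in CPM on a log axis (its range differs between panels) in the 19 dogs without CHF (blue) and the 15 with CHF (red), with circles for females, triangles for males, bars at the group medians and open symbols at the bottom of the SLN panel for 2 dogs with 0 counts. The groups overlap in every panel, and the single highest dog of 9 panels, CAV1047, is a female with CHF.

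Levels may be compared between genes only where length is known in the same way. The features of PLN, ATP2A2, CASQ2, TRDN and SLC8A1 hold exons alone, whereas those of RYR2, CACNA1C, JPH2, SLN and HRC are human alignments counted over their whole span, introns included. Per kilobase of counted exon, ATP2A2 was highest, with a median of 83.2 CPM per kilobase over the 34 dogs and a range of 17.4 to 878. PLN followed at a median of 47.5, and exceeded ATP2A2 in 2 dogs. CASQ2 (median 19.7) and SLC8A1 (median 17.6) were close, with CASQ2 above SLC8A1 in 20 of 34 dogs, and TRDN had the lowest median, 9.72 CPM per kilobase. SLC8A1 was the lowest of the 5 genes in 11 dogs and TRDN in 21, so the order at the lower end depended on the dog.

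The first comparison asks whether the calcium handling genes differ in level between dogs with and without CHF. None of the 10 passed the test. With sex in the model, 0 of 10 genes passed an FDR of 0.1 by edgeR, 0 had an unadjusted p below 0.05, and DESeq2 and limma voom also called 0. Over all features, edgeR called 23 of 19568, which is 0.118%, DESeq2 called 64 (0.327%), and 1234 had an unadjusted edgeR p below 0.05. In bulk tissue, fewer heart muscle cells and less RNA per cell cannot be told apart, and this holds for each difference given here.

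The log2 difference, CHF over noCHF, was 0.35 (SE 0.82) for TRDN, 0.29 (SE 0.71) for PLN, 0.26 (SE 0.38) for SLC8A1, 0.25 (SE 0.52) for ATP2A2 and 0.20 (SE 0.88) for CASQ2. HRC was at 0.19 (SE 0.67), CACNA1C at 0.16 (SE 0.25), JPH2 at 0.11 (SE 0.60), RYR2 at 0.06 (SE 0.49) and SLN at -0.51 (SE 0.83). The signs were positive for 9 genes and negative for SLN, the median was 0.20 against 0.01 over all features, and FDR values ran from 0.955 to 0.993. The signs rested on single dogs. Without CAV1047 all 10 differences were negative, from -0.93 for SLN to -0.13 for CACNA1C, and without CAV865, a male without CHF, SLN was at 0.67. Without CAV373, a male with CHF, 4 signs turned, RYR2 to -0.15, HRC to -0.04, CASQ2 to -0.03 and JPH2 to -0.03. The sign of RYR2 also turned without CAV1049, CAV1939, CAV444, CAV494 or CAV749, to -0.01 or nearer to 0.

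The intervals of these differences were wide. For CASQ2 the 95% interval allowed anything from 0.334-fold to 3.94-fold, and for SLN from 0.219-fold to 2.27-fold. CACNA1C was bounded most closely, between 0.785-fold and 1.6-fold, followed by SLC8A1 with 0.7-fold to 2.04-fold. A doubling was therefore outside the interval for CACNA1C and within it for the other 9 genes.

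The second comparison sets the groups side by side at equal heart muscle content, by adding the cardiomyocyte marker mean to the model. The standard errors shrank to between 0.08 for CASQ2 and 0.43 for SLN. Again 0 of 10 genes were called by edgeR, 0 had an unadjusted p below 0.05, and DESeq2 and limma voom called 0, beside 30 of 19568 features called over the table (0.153%).

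At equal marker mean CASQ2 was at a log2 difference of 0.03 (SE 0.08), with a 95% interval of 0.916-fold to 1.13-fold. TRDN was at 0.06 (SE 0.15) with an interval of 0.845-fold to 1.28-fold, and CACNA1C at 0.03 (SE 0.13) with one of 0.848-fold to 1.23-fold. A difference of 1.5-fold in either direction lies outside the interval for these 3 genes, and also for ATP2A2, SLC8A1 and JPH2.

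The largest estimates at equal marker mean were those of PLN, -0.31 (SE 0.19, edgeR unadjusted p = 0.113, FDR 0.716), and RYR2, -0.26 (SE 0.19, edgeR unadjusted p = 0.175, FDR 0.764). HRC was at -0.20 (SE 0.20), SLN at -0.19 (SE 0.43), ATP2A2 at -0.16 (SE 0.20), JPH2 at -0.14 (SE 0.18) and SLC8A1 at -0.02 (SE 0.17). The median of the 10 was -0.15, against 0.00 over all features. With a squared term of the marker mean in the model as well, 0 of 10 genes were called (0.164% of features), PLN moved to -0.15 (SE 0.13), RYR2 to -0.09 (SE 0.10), and ATP2A2 and SLC8A1 to positive values of 0.04 (SE 0.10) and 0.13 (SE 0.12).

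**Figure D2:**
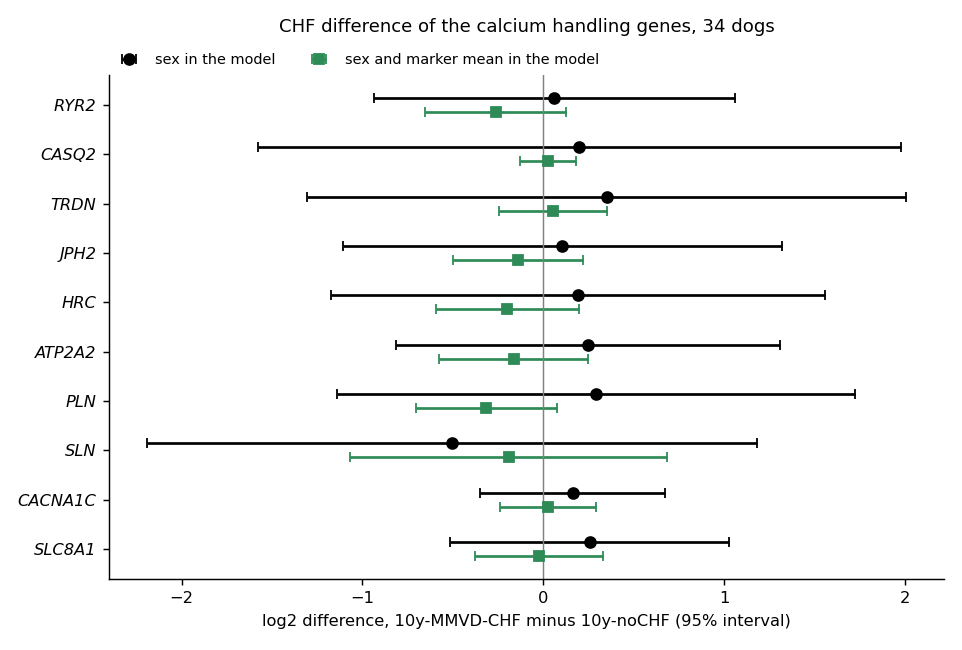
Log2 difference of each gene between 10y-MMVD-CHF (n = 15) and 10y-noCHF (n = 19) with 95% intervals (horizontal bars), with sex in the model (black circles) and with sex and the cardiomyocyte marker mean in the model (green squares). All 20 intervals include 0, and the green ones are shorter for each gene, most of all for CASQ2 and TRDN.

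The difference between dogs with and without CHF was also compared between the sexes. The interaction term, the CHF difference in males minus that in females, lay between -0.77 (SE 1.68) for SLN and 0.26 (SE 1.66) for TRDN. By edgeR 0 of 10 genes were called and 0 had an unadjusted p below 0.05. Among all 19568 features 0 (0%) were called and 1178 had an unadjusted p below 0.05. For CACNA1C, the best measured, the interval ran from 0.514-fold to 2.19-fold, so a sex difference within these limits was not excluded.

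The third comparison sets each gene against the heart muscle content of the sample. All 10 genes rose with the marker mean (edgeR, highest FDR 1.26e-09 for CACNA1C), beside 19.2% of the features in the table that rose and 37.9% that moved in either direction. A slope of at least 0.2 log2 units per log2 unit of marker mean was found in 5.57% of features. This cutoff was not planned and lies just below the lowest slope of the 10 genes, 0.201 for CACNA1C. That all 10 reach it is therefore not a separate result. The median slope was 0.65 for the 10 genes and -0.01 over all features.

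CASQ2, TRDN and SLN had the steepest slopes. CASQ2 had a slope of 1.13 (95% interval 1.10 to 1.17), TRDN of 1.0 (0.94 to 1.07) and SLN of 0.93 (0.75 to 1.11), where a slope of 1 means a gene that scales with the markers. For CASQ2 the interval lay above 1, and for TRDN and SLN it included 1.

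The intervals of the other 7 genes lay below 1. PLN had a slope of 0.74 (0.67 to 0.82), HRC of 0.69 (0.62 to 0.76) and JPH2 of 0.61 (0.54 to 0.67). ATP2A2 followed at 0.48 (0.41 to 0.55), RYR2 at 0.44 (0.38 to 0.51), SLC8A1 at 0.33 (0.27 to 0.39) and CACNA1C at 0.20 (0.16 to 0.24). Of the 9 steps in this order, those from TRDN to SLN and from SLN to PLN had a 95% interval of the slope difference that included 0, and the other 7 did not. The order mixes genes counted over exons alone with RYR2, CACNA1C, JPH2, SLN and HRC, counted over their whole span. What this adds to the order was not tested.

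**Figure D3:**
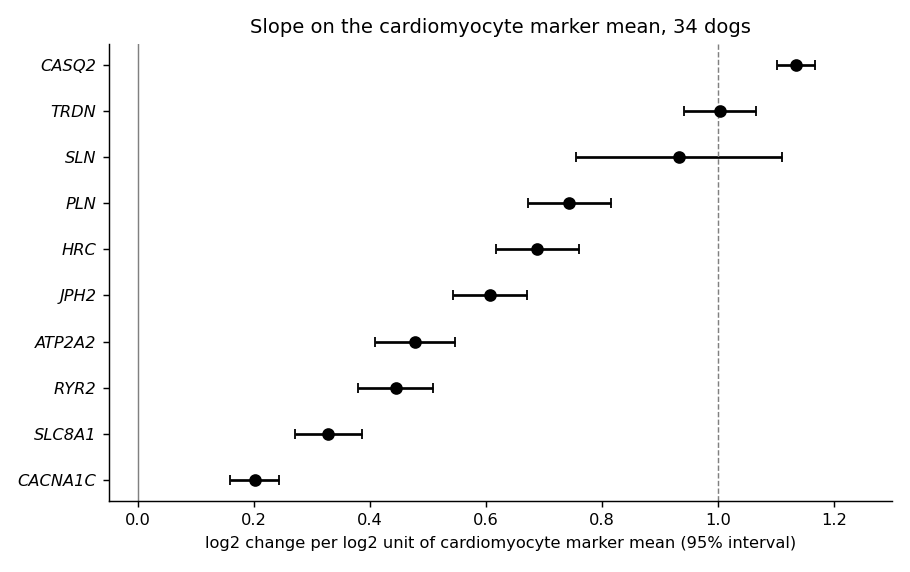
Slope of each gene on the cardiomyocyte marker mean (points) with 95% intervals (bars) over 34 dogs, in log2 units per log2 unit, with a solid line at 0 and a dashed line at 1. The slopes run from 0.20 for CACNA1C to 1.13 for CASQ2, and the interval of SLN, the gene with the fewest counts, is the widest.

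The shape behind the slopes differed between genes. In the 10 dogs with a marker mean of 3.15 or less, CASQ2 ran from 0.0774 to 5.87 CPM and TRDN from 0.0516 to 3.33 CPM. Over the same dogs ATP2A2 stayed between 69.8 and 147 CPM, RYR2 between 28.5 and 59.7, CACNA1C between 24 and 35.3, and SLC8A1 between 15.1 and 37.2. PLN (7.63 to 26.9 CPM), HRC (3.14 to 6.31 CPM) and JPH2 (0.54 to 1.97 CPM) were low in these dogs but not at 0. Reads of overlapping features count here too. These features are CEP85L for PLN, a KLK4 alignment for HRC, and CACNA1C-AS1 and a MAPK3 alignment for CACNA1C. Counting over the whole span, as for RYR2, CACNA1C, JPH2, SLN and HRC, also takes in intron reads. For ATP2A2, listed both ways, the lowest count was 4681 over exons and 8425 over the span, and the highest 137270 and 142635. The part of overlapping and intron reads in these low values, and which cells carried them, was not tested.

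A squared term of the marker mean measures this shape. It was positive and called for 7 of 10 genes, RYR2, PLN, ATP2A2, CACNA1C, SLC8A1, JPH2 and HRC, with values from 0.04 for CACNA1C to 0.07 for ATP2A2 (edgeR, highest FDR 1.99e-05), beside 15% of all features with a positive term. These 7 were flatter at low marker means and steeper at high ones. The term was negative for CASQ2 (-0.02, edgeR FDR 0.0181), beside 7.58% of features with a negative one, and was not called for TRDN (0.00, FDR 0.861) and SLN (-0.03, FDR 0.568). Without CAV1047, the dog with the highest marker mean, 8 genes were again called, while the features called over the table dropped from 4417 to 2049.

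**Figure D4:**
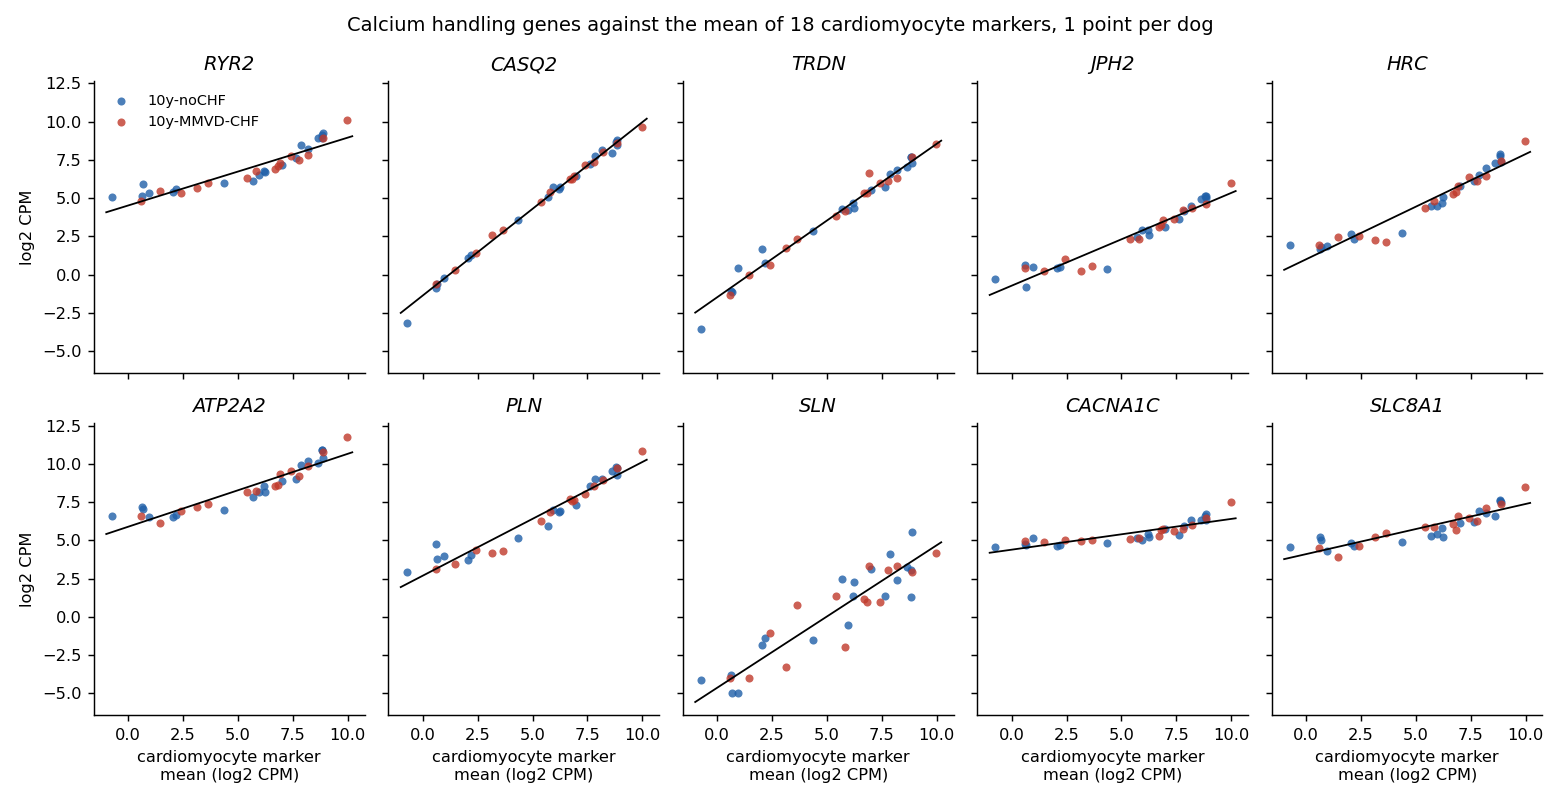
Log2 CPM of each gene against the cardiomyocyte marker mean (log2 CPM), 1 point per dog, blue without CHF and red with CHF, with a line of the fitted slope through the mean of both axes. CASQ2 and TRDN lie closest to their lines relative to their range, with CAV749 below both lines at the low end. RYR2, ATP2A2, CACNA1C and SLC8A1 are flat on the left and turn upward on the right, and SLN scatters most.

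The dogs at both ends show the same in their own values. From CAV749 to CAV1047, CACNA1C went from 24 to 179 CPM, SLC8A1 from 23.7 to 354, RYR2 from 34.1 to 1102 and ATP2A2 from 95.6 to 3519. In the same pair of dogs JPH2 went from 0.8 to 63.0 CPM, HRC from 3.79 to 426, PLN from 7.63 to 1833, TRDN from 0.0516 to 372 and CASQ2 from 0.0774 to 804.

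How closely a gene followed the marker mean was measured as the share of its log2 variance, within group and sex, left around the fitted line. CASQ2 left 0.472% and TRDN 1.97%. PLN left 5.37%, HRC 6.98% and JPH2 7.89%, while ATP2A2 left 13.7%, RYR2 14.4%, SLN 17.4%, SLC8A1 20.5% and CACNA1C 28%. For RYR2, ATP2A2, CACNA1C and SLC8A1 the dog farthest above the line was CAV1047.

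Smooth muscle was considered as another carrier of these genes, since CACNA1C, SLC8A1 and ATP2A2 are also active there. With the cardiomyocyte and the smooth muscle marker means both in the model, 0 of 10 genes had a slope on the smooth muscle mean that was called by edgeR, and 0 had an unadjusted p below 0.05, beside 1.55% of features called over the table. The slope was 0.31 (SE 0.21) for PLN, 0.19 (SE 0.15) for CACNA1C, 0.16 (SE 0.23) for ATP2A2 and 0.08 (SE 0.21) for SLC8A1. The smooth muscle mean itself spanned only 6.12 to 8.08 in log2 CPM over the dogs, which limits the precision of these slopes.

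SLN had the widest spread around its line in log2 units (SD 1.28), although CACNA1C and SLC8A1 had a larger share of their variance left. The dogs farthest above and below the SLN line, CAV865 and CAV1259, are each set here beside a dog of like marker mean, pairs chosen after their values were seen. CAV865 and CAV1731, both without CHF, had almost the same marker mean, 8.86 and 8.81. SLN was at 47.6 CPM (2114 counts) in the first and at 2.39 CPM (130 counts) in the second. In the same dogs CASQ2 was at 442 and 409 CPM, PLN at 631 and 871 CPM and ATP2A2 at 1341 and 1944 CPM.

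The pair of CAV1259 lies at a middling marker mean. CAV579 (marker mean 5.70, without CHF) had 5.51 CPM of SLN and CAV1259 (5.81, with CHF) had 0.219 CPM, from 364 and 12 counts. PLN in these dogs was at 61.3 and 116 CPM, so the order of both pump regulators was opposite.

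Since sarcolipin is chiefly atrial and phospholamban is abundant in ventricle, the log2 ratio of SLN to PLN was set against the atrial minus the ventricular marker mean (MYL4, MYL7 and NPPA against MYL2, MYL3 and MYH7). Over 34 dogs Pearson's r was 0.198 (two-sided permutation p = 0.261, adjusted over 2 relations p = 0.523) and Spearman's rho 0.243 (permutation p = 0.167). Without CAV576 and CAV743, the 2 dogs farthest from the median of the marker difference, r was 0.179. Within the 10y-MMVD-CHF group r was 0.260 and within the 10y-noCHF group 0.188. In the 28 dogs with more than 3 counts of SLN, a subset chosen after seeing the data, r was 0.028 (permutation p = 0.889) and rho -0.07 (permutation p = 0.714), so no relation was detected.

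CAV576 and CAV743, both without CHF, were the only dogs of the 34 in which the ventricular marker mean exceeded the atrial one, 5.88 against 4.79 and 8.75 against 8.57. The ventricular light chain MYL2 was at 75.7 and 538 CPM in them. It was also at 93.9 CPM in CAV865, where the atrial mean (10.7) exceeded the ventricular one (8.05). CAV576 was also the dog farthest below the marker line for ATP2A2, JPH2 and HRC, at -1.01, -1.56 and -1.31 log2 units, and CAV743 was the one farthest below it for CACNA1C, at -0.52. Whether the part of the heart sampled plays a role was not tested.

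**Figure D5:**
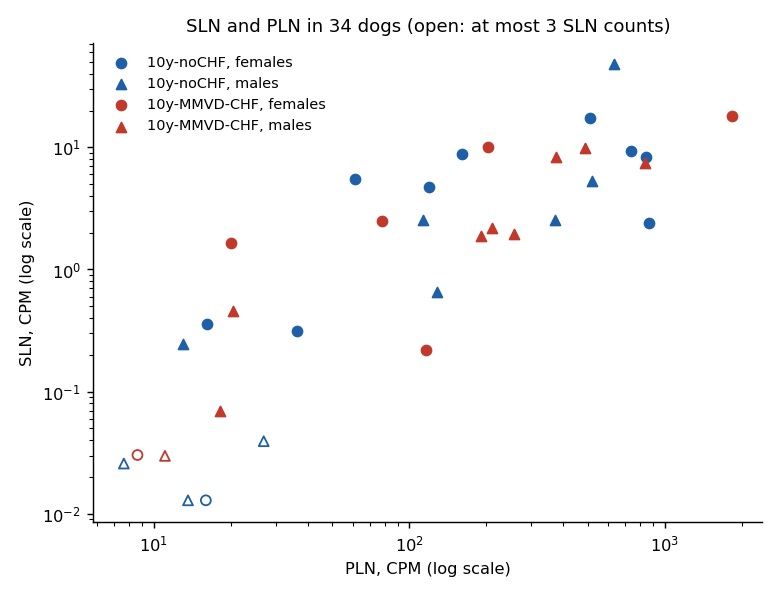
SLN against PLN in CPM, both on log axes, 1 symbol per dog (blue without CHF, red with CHF, circles females, triangles males), with open symbols for the 6 dogs with at most 3 counts of SLN and the 2 dogs at 0 drawn at the bottom. At PLN levels above 100 CPM, SLN runs from 0.219 to 47.6 CPM.

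Ratios between genes that work together were compared as log2 ratios of CPM, not scaled by length. None of the 6 ratios passed the test between the groups (two-sided permutation of CHF labels within each sex, lowest p = 0.394, adjusted over 6 ratios p = 0.952). PLN to ATP2A2, a regulator to its pump, was at -1.76 ± 0.93 (SD, n = 15) with CHF and -1.75 ± 0.91 (SD, n = 19) without. SLN to ATP2A2 was at -8.02 ± 1.61 and -8.07 ± 2.13, and SLN to PLN at -6.27 ± 1.37 and -6.32 ± 1.70. In the 6 dogs with at most 3 counts of SLN, the SLN ratios depend on the prior count added to log2 CPM. The lowest values, -11.99 for SLN to ATP2A2 in CAV1939 and -8.96 for SLN to PLN in CAV494, came from dogs with 0 SLN counts.

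SLC8A1 to ATP2A2, removal from the cell against return to the store, was at -2.57 ± 0.48 (SD, n = 15) with CHF and -2.63 ± 0.56 (SD, n = 19) without, the smallest spread of the 6. CASQ2 to RYR2, the store protein to its channel, was at -1.80 ± 1.87 with CHF and -2.40 ± 2.56 without. This ratio ran from -8.28 in CAV749, which had the lowest marker mean and 6 counts of CASQ2, to 0.24 in CAV648. The marker mean was not in the ratio tests, although genes of a ratio differed in slope on it, 1.13 for CASQ2 and 0.44 for RYR2. Such a ratio also moves with the heart muscle content of the sample. HRC to CASQ2 was at -0.31 ± 1.24 with CHF and 0.15 ± 1.79 without.

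The 10 genes ranked the dogs alike. Over the 45 pairs of genes, Spearman's rho of log2 CPM across 34 dogs ran from 0.83 to 0.984 with a median of 0.950, and the 36 pairs without SLN were all at 0.903 or above. The pairs with SLN reached at most 0.879. These are descriptions, since all pairs share the same libraries and the same range of heart muscle RNA.

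For each gene, the 3 features with the most similar pattern over the 34 dogs were looked up. For CASQ2 they were MYH7 (rho 0.993), MHRT, an antisense RNA of the MYH7 locus that counting without strand cannot separate from it, and SMPX. For TRDN they were TNNT2 (0.994), SMYD1 and MYBPC3, and for HRC they were TECRL (0.984), MYH7 and MYBPC3. Sarcomere genes were among the nearest for all 3, and MYH7, SMPX, TNNT2 and MYBPC3 are in the marker lists used here.

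The nearest features of the remaining genes were mostly of other kinds. Exceptions were the cardiac actin ACTC1, the nearest of SLN, and TTN-AS1 for SLC8A1, named as antisense to the marker TTN. ATP2A2 was nearest to SLC8A1 (0.985, by its human alignment), PPP1R3A and KCNJ3, and SLC8A1 to ATP2A2 (0.978), SPTB and TTN-AS1. RYR2 was nearest to MYZAP (0.985), TXLNB and GCOM1, JPH2 to ADCY5 (0.985), GNAO1 and AIFM1, and CACNA1C to PCDH7 (0.966), CTNNA2 and CA14. PLN was nearest to CEP85L (0.999), with which it shares reads, then to MYO18B and SH3BGR. SLN had the least similar neighbours, ACTC1 (0.889), KLHL30 and DSG1.

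The other genes of the pathway were drawn from 7 lists with 89 genes, of which 85 could be tested. Between the groups 0 of 85 were called by edgeR with sex in the model, 3 (3.53%) had an unadjusted p below 0.05 beside 6.31% of all features, and DESeq2 and limma voom called 0. At equal marker mean edgeR and limma voom called 0 of 85, 7 (8.24%) had an unadjusted edgeR p below 0.05 beside 7.77% of all features, and DESeq2 called 1, beside 128 features over the table (0.654%). The median log2 difference of the 85 genes was 0.03 with sex in the model and -0.03 at equal marker mean.

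The gene called by DESeq2 was MCU, the pore of the mitochondrial calcium uniporter. Its mean level was 33.8 ± 4.76 CPM (SD, n = 15) with CHF and 40.7 ± 5.93 CPM (SD, n = 19) without. The log2 difference was -0.26 (SE 0.07, edgeR unadjusted p = 0.00109, FDR 0.368) with sex in the model and -0.28 (SE 0.07, edgeR FDR 0.219) at equal marker mean. Under the alternatives at equal marker mean the FDR ran from 0.034, with the smooth muscle mean also in the edgeR model, to 0.257, and DESeq2 gave 0.0537. It was not called in any of the 34 edgeR fits that left out 1 dog (FDR 0.1001 to 0.383). On simulated counts with the marker mean in the model, 22.8% of DESeq2 calls were false, against 7.96% of edgeR calls. The simulation changed 200 features by a log2 size of 1 or a larger one, above that of MCU. These shares therefore do not give the chance that the MCU call is false.

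Among the partners of the release channel, 19 genes, the smallest p belonged to JSRP1, a junctional protein of skeletal muscle (log2 difference -1.82, SE 0.76, edgeR unadjusted p = 0.0229, FDR 0.7), at a median of 0.0499 CPM. The fast skeletal muscle markers were also lower with CHF, and their part in this value was not tested. FKBP1A, which binds the release channel, was at 0.08 (SE 0.05, FDR 0.841). Of the pumps, 9 tested, ATP2A3 was at 0.19 (SE 0.14) and ATP2B2, a pump of the surface membrane, at 0.68 (SE 0.54).

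Of the 12 channel subunits CACNB3 was at -0.13 (SE 0.09) and CACNG6, at a median of only 0.0604 CPM, at -1.0 (SE 0.72). MICU3, a regulator of the uniporter, was at -0.15 (SE 0.08). The inositol trisphosphate receptors ITPR2 and ITPR3, release channels of many cell types, were at 0.18 (SE 0.11) and -0.09 (SE 0.10). PPP1CB, a phosphatase subunit, was at 0.15 (SE 0.08). The calcium binders CALM3 and RCN1 were at 0.08 (SE 0.05) and -0.12 (SE 0.08).

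With the marker mean, 43 of the 85 genes rose (50.6%, beside 19.2% of all features), 13 fell (15.3%, beside 18.7% of all features) and 29 were not called. In the list of release channel partners 9 of 19 rose and 4 fell, and the steepest slopes were those of CAV3 (1.12), SRL (0.89), CASQ1 (0.88) and CMYA5 (0.82). Among pumps and their regulators 4 of 9 rose, with PPP1R3A at 1.0, and among kinases, phosphatases and anchors 15 of 19 rose. The calcium binders had 0 of 7 genes that rose and 3 that fell. RYR3 and RYR1, the other ryanodine receptors, fell with slopes of -0.10 (edgeR FDR 0.000528) and -0.08 (edgeR FDR 0.0231). These steep and falling genes were named after their values were seen.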

How the data were processed

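RNA-seq of 34 mitral valves was analysed as raw counts per feature, which the authors deposited after mapping to canFam4 with STAR and counting with featureCounts 2.0.3, run so that a read counts for each feature it overlaps, strand is ignored and the 2 reads of a pair are counted one by one. Features are 2165 canine RefSeq genes and 21603 human XenoRefSeq alignments. Of the 35 count columns, 1 belongs to no sample and was not used. No 2 dogs had identical counts. Groups and sex follow the labels, and dogs count as separate animals.

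Features reaching 100 counts over all dogs together were tested. CHF was tested with the quasi-likelihood method of edgeR 4.0.16 in R 4.3.3, with TMM scaling, a term for sex and Benjamini-Hochberg adjustment over all features (FDR 0.1). Its standard errors were derived from the test statistic. DESeq2 1.42.0, the study's tool, and limma 3.58.1 voom were alternatives, as were other normalizations, filters, covariates, a stricter FDR and fits without 1 dog (71). Log2 CPM used a prior count of 2. Permutation tests used 100000 resamples within sex. Tests were tried on simulated counts, where edgeR recovered 89% of 200 changed features in the CHF comparison with sex (19405 features), with 4.3% false calls. Recovery was 87% for features changed by a log2 size of 1 and 91% for those changed by the larger size. The standard errors of the calcium handling genes in that comparison ran from 0.25 to 0.88. Recovery at such standard errors was not tested, so the 89% is not the power for these genes.

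The genes, lists and tests were chosen with earlier results of these data known. Named genes are the 10 genes, per pathway list those with FDR below 0.1 or otherwise the 2 with the smallest p, and for each of the 10 genes the 3 features most alike in Spearman's rho. One of the named pathway genes is not reported here. The ratio design named length-scaled CPM, and CPM without length scaling was used, which shifts each ratio by a constant. The curvature without single dogs and the subset of dogs with more than 3 SLN counts were added after seeing the data. No sequences are shown.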

Additional observations from a re-analysis of the deposited data

Results flagged for a closer look

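In females with CHF (n = 6), the CACNA1C level of CAV1047 lay far above the others, at 179 CPM against 52.4 CPM in the next dog. The gap was 0.693 of the whole range in log2 CPM, above Dixon's 95% critical value. It was the only one among 40 tests (10 genes in 4 groups of CHF and sex), of which chance alone would mark about 2. CAV1047 also had the highest marker mean of all dogs.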

How the results depend on the processing

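No paired analysis was possible because each dog belongs to only 1 group and no label links dogs across groups. Calls on the 10 genes kept their number in each alternative run for them: 0 for CHF with and without the marker mean, the interaction and the smooth muscle slope, 10 for the marker slope and 8 for the curvature. Fits without 1 dog were run for CHF, with and without the marker mean, and for the marker slope over all 34 dogs, for the curvature with 3 dogs left out in turn (CAV1047, CAV749 and CAV614), and not for the interaction or the smooth muscle slope. The number of features called for CHF over the table moved to 64 with DESeq2, 13 with no sex term and 9 at an FDR threshold of 0.05, and at equal marker mean to 128 with DESeq2, 73 with the smooth muscle mean added and 19 at the stricter threshold. The other pathway genes had 1 call at equal marker mean with DESeq2 and 1 with the smooth muscle mean. Some signs turned, none of them of a called value. With sex in the model SLN was at 0.31 with voom and RYR2 at -0.000487 without the sex term. At equal marker mean CASQ2 was at -0.00735 with 6 chamber markers, -0.0605 with atrial and ventricular means, -0.0204 with voom, -0.00154 with the squared term and -0.0169 with the human alignment, TRDN at -0.00607 with the smooth muscle mean and -0.00871 with the human alignment, SLN at 0.0350 and CACNA1C at -0.0770 with voom, and ATP2A2 at 0.0353 and SLC8A1 at 0.13 with the squared term. The interaction of CASQ2 was at -0.00722 with RLE, and the PLN to ATP2A2 ratio differed by 0.0191 with the human alignment. The causes were not tested.

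Leaving out 1 dog moved the features called for CHF between 8 and 28, at equal marker mean between 19 and 71 (71 without CAV1047), and over the 3 curvature fits between 2049 and 4919. The CHF difference then ran from -0.58 to 0.39 for RYR2, -0.51 to 0.52 for PLN, -0.35 to 0.45 for ATP2A2, -0.68 to 0.57 for CASQ2, -0.28 to 0.67 for TRDN, -0.93 to 0.67 for SLN, -0.13 to 0.25 for CACNA1C, -0.13 to 0.45 for SLC8A1, -0.51 to 0.37 for JPH2 and -0.58 to 0.47 for HRC. At equal marker mean it ran from -0.00159 to 0.0547 for CASQ2, -0.0838 to 0.167 for TRDN, -0.39 to 0.20 for SLN, -0.0920 to 0.0663 for CACNA1C and -0.134 to 0.0321 for SLC8A1. Over the 3 curvature fits TRDN ran from -0.00347 to 0.00338, and with all dogs it was at -0.00353. Depth limits SLN, with at most 3 counts in 6 dogs.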
